A study of Mus musculus with 4 samples.

Results

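In LSK cells lacking Meis1, 147 array probes, which stand for 143 genes or transcripts, gave a higher signal than in wild type cells on both slides of the experiment. The probes were chosen by that difference itself. A probe had to be free of control and outlier marks and well above background on all 4 arrays, and its signal had to be higher in Meis1 KO than in wild type by at least 0.8 on the log2 scale on slide 1 and again on slide 2. Of 41174 probes on the array, 18850 were well above background on all 4 arrays, and 0.78% of those 18850 met the rule upward. By the mirrored rule 146 probes were lower on both slides (0.775%). Because the same 4 arrays chose the probes, their levels and differences below are a description and carry no test.

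The LSK fraction of bone marrow lacks the markers of mature lineages, carries both Sca-1 and c-Kit on its surface, and holds the hematopoietic stem cells and the earliest progenitors. Meis1 is a homeodomain transcription factor that works with HOX and PBX proteins. It is known for its high level in primitive hematopoietic cells and for its part in leukemia. The study compared both genotypes to ask which genes depend on Meis1 in these cells.

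The Meis1 KO samples were from mice with 2 floxed Meis1 alleles and a Cre transgene (Mx1-Cre+ Meis1 fl/fl). The wild type samples were from Meis1 fl/fl animals that lacked Cre, so that wild type here still carries the floxed alleles. All were on a C57BL/6J background and injected from 4 to 8 weeks of age. Mx1-Cre is switched on by interferon in many cell types, so that poly(I:C) removes the floxed exon in hematopoietic cells and beyond. The sample labels give 4 injections of poly(I:C) at 1.5 µg per g body weight for both genotypes, whereas the design text and the array methods call the control mice sham-treated, so that genotype and poly(I:C) cannot be told apart if the latter is right. LSK cells were collected 1 week after treatment as 2 pools of 6 mice per genotype, each pool was hybridized to 1 array, and the 2 pools of a number shared a slide.

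Levels are log2 signals relative to the 75th percentile of the same array, so that a level of 0 is the signal below which 75% of the probes on that array lie. Of the targeted gene, the brighter probe A_52_P670612 read 0.28 and 0.24 on the Meis1 KO arrays and 1.04 and 1.47 on the wild type arrays. The second Meis1 probe, A_52_P26195, read -2.44 and -3.52 in Meis1 KO, the latter not well above background, and -1.52 and -1.04 in wild type. Both probes were lower in Meis1 KO on both slides. Whether either probe lies in the deleted exon was not looked up here. As for the cells, Kit, Ly6a (Sca-1) and Cd34 were well above background on every array, while neither Cd3e probe, a T cell marker, was above background on any.

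The second Meis1 KO array stood apart from the rest. It correlated with the other arrays at 0.934 to 0.946 over all probes, against 0.967 to 0.977 among the other 3, its 75th percentile was 90.1 signal units against 147 to 154, and 49.2% of its spots were well above background against 54.7% to 57.4%. Over the 18850 detected probes the median difference between genotypes was 0.03 on slide 1 and 0.22 on slide 2. Xist, which marks female cells, read 5.33 (Meis1 KO) and 5.35 (wild type) with probe A_52_P300376 on slide 2 and -3.72 and -5.75 on slide 1, the latter not well above background. The Y-linked Ddx3y was above background on the slide 1 arrays alone. On slide 1 a second Xist probe, A_51_P145453, read -1.99 in Meis1 KO and -3.43 in wild type. The slides thus differed in these sex-linked genes by more than the genotypes did on either slide.

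In the upward direction, a difference on 1 slide said little about the other slide. On slide 1, 642 probes were higher in Meis1 KO by 0.8 or more, and 147 of these, 22.9%, also passed on slide 2. On slide 2, 4009 of all 18850 probes passed, which is 21.3%, and the 147 are 3.67% of them. In the downward direction the same shares stood further apart: 146 of 604 probes, or 24.2%, against 13.1% of all probes. Within 4 equal bands of brightness, the upward share among probes that passed on slide 1 was 22.7%, 21.5%, 26.7% and, with 4 such probes, 50%, from the dimmest band to the brightest. The share of all probes that passed on slide 2 was 20.2%, 15.8%, 18.9% and 30.2% in those bands. Downward, the shares among probes that passed on slide 1 were 15.2%, 32.6%, 31.1% and 26.8%. Those of all probes were 13.0%, 19.0%, 13.8% and 6.43%. Across the 18850 probes, which share the same 4 arrays, the differences on both slides correlated at r = 0.06.

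**Figure D1:**
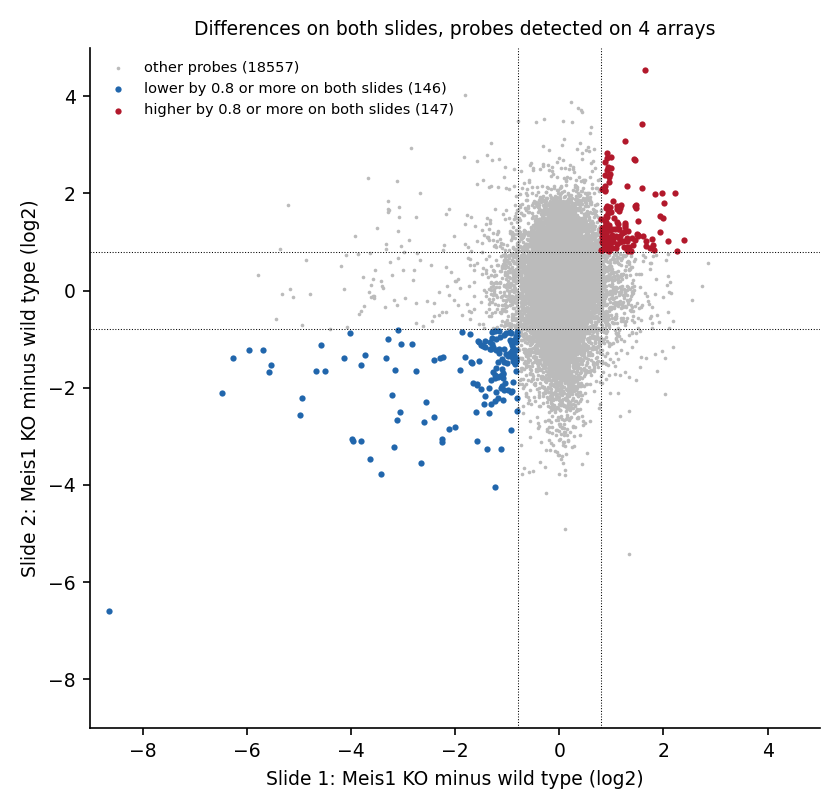
Difference between Meis1 KO and wild type (log2) on slide 1 (x axis) and on slide 2 (y axis) for the 18850 probes well above background on all 4 arrays, with dotted lines at 0.8 and -0.8. The 147 red probes are those described here, the 146 blue probes are lower on both slides, and the grey cloud is taller than it is wide because slide 2 had the wider spread.

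The members were higher in Meis1 KO by a median of 1.01 on slide 1 and 1.20 on slide 2, with ranges of 0.80 to 2.39 and 0.81 to 4.55. On both slides 59 of them differed by 1 or more, a doubling of signal. The difference was larger on slide 2 for 97 of the 147. The highest of the 4 arrays was the second Meis1 KO array for 125 members, and the lowest was the first wild type array for 114. For 124 members both Meis1 KO arrays were above both wild type arrays, as they were for 17.2% of all detected probes, and for the other 23 the genotypes overlapped once the slides were set aside. With the pairs crossed between slides, 43 of the 147 still met the rule. The standard error of a member's mean difference in limma, with 2 arrays per genotype, ran from 0.42 to 0.99 with a median of 0.51. In that fit 4 members met the criteria of the array methods, over 2-fold with p under 0.01 before adjustment, which 0.136% of 22000 tested probes met upward, and with the slide as a block 25 did, against 0.573%. The members were chosen on the same contrast, so that nothing is read from these counts. No probe had a Benjamini-Hochberg adjusted p under 0.05 in limma without the block, where 618 of 22000 had an unadjusted p under 0.05. With the block 34 probes had such an adjusted p, none of them a member.

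Most members were dim. Their median level was -1.37 and -0.62 in Meis1 KO and -2.53 and -1.99 in wild type, where the median of all detected probes lay between 0.24 and 0.29 on the 4 arrays. Of the 147, 101 fell in the dimmest of the 4 brightness bands, 32 in the next, 12 in the one above and 2 in the brightest. In signal units their medians were 56.1 and 57.9 in Meis1 KO and 24.9 and 38.1 in wild type. When the background was corrected with normexp and an offset of 50 units, all 147 stayed higher on both slides, but 4 reached 0.8 on both. These were Ube2e2, the immunoglobulin kappa gene LOC100046496 and 2 unnamed cDNA clones (probes A_51_P164588 and A_52_P723694). With an offset of 1, 101 of the 147 did, among 279 probes.

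Members are described one by one, and the order by function is for reading only. Ranked by the smaller difference of both slides, Ube2e2, an E2 ubiquitin-conjugating enzyme, led the set with -1.34 and 0.52 in Meis1 KO against -3.55 and -1.49 in wild type. This is 2.21 higher on slide 1 and 2.02 on slide 2 (mean 2.11, SE 0.89), although the first Meis1 KO array and the second wild type array were nearly level. Fbxw11, an F-box protein that brings substrates to a ubiquitin ligase, read -1.20 and -0.62 in Meis1 KO and -2.70 and -1.78 in wild type. Ap2b1, a subunit of the AP-2 clathrin adaptor, read -1.28 and -0.94 against -3.29 and -2.74, with no overlap and a standard error of 0.46. It was the only member among 26 detected genes for the clathrin coat and its adaptors, whose 48 probes had median differences of 0.05 and 0.02. Abi2, an Abl interactor of the WAVE complex that drives actin branching, read -0.03 and 0.64 against -1.29 and -0.70. Mrtfa, on the array as Mkl1, is an actin-sensing coactivator of serum response factor, and read -0.88 and 0.34 against -2.13 and -0.87. In Mrtfa the second wild type array was slightly above the first Meis1 KO array.

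Receptors and surface proteins were also among the named members. Agtr1a, the type 1a angiotensin II receptor, read 0.19 and -0.27 in Meis1 KO and -0.94 and -1.64 in wild type, and both Meis1 KO arrays were the higher ones. Pecam1, the adhesion molecule CD31 of endothelial and hematopoietic cells, was among the brighter members, with 1.64 and 0.98 against 0.78 and -0.02. It was the one member among the stromal and endothelial markers, of which 4 probes were detected on all arrays. The summed linear level of the 28 probes of that list, in multiples of the 75th percentile, was 34.4 and 47.1 in Meis1 KO and 34.5 and 29.1 in wild type, and its part in the Pecam1 value was not tested. In pooled cells such as these, a different number of cells of a type and a different amount of RNA per cell cannot be told apart.

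Rhag, the Rhesus-associated glycoprotein of the red cell membrane, read -0.91 and -0.77 in Meis1 KO and -2.21 and -2.91 in wild type, a difference of 1.30 and 2.15. It was the one member among 25 detected erythroid genes. Of that list, 3 genes met the mirrored rule, namely Car1, Ermap and Rhd. By sign 12 of the 31 detected probes were higher and 7 lower on both slides, and the 31 had median differences of 0.07 and 0.18. The summed linear level of the 55 erythroid probes on the array, in the same unit, was 437 and 723 in Meis1 KO and 364 and 235 in wild type. On the 4 arrays in that order 38, 33, 42 and 36 of the 55 were above background. One Hbb-bt probe, A_52_P213909 for beta globin, read 6.58 and 7.95 against 6.33 and 4.49. The part of red cell RNA in the Rhag difference was not tested.

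Some further receptors were picked out after their values had been seen. Cxcr2, a neutrophil receptor for CXC chemokines, read 2.05 and 1.46 in Meis1 KO and 1.11 and -1.08 in wild type. Ffar2, a receptor for short-chain fatty acids found on neutrophils, read 1.81 and 2.07 against 0.93 and -0.30. In both the genotypes did not overlap, and the larger difference was on slide 2, at 2.54 and 2.37. Of 20 granulocyte and monocyte probes detected, none was a member and 1, for Elane, met the mirrored rule. By sign 7 were higher and 3 lower on both slides. The summed level of that list was 206 and 173 in Meis1 KO and 225 and 90.2 in wild type, so that it was higher in Meis1 KO on slide 2 and lower on slide 1. S100a9, an abundant neutrophil protein, read 5.03 and 1.87 against 6.09 and 1.34. How far this bears on Cxcr2 and Ffar2 was not tested. The cytokine receptor chains Il15ra and Il17rb read -1.95 and -1.42 against -2.79 and -2.40, and -1.46 and -1.83 against -2.27 and -3.06. Olfactory receptors, also picked afterwards, supplied 2 of 42 detected probes (Olfr920 and Olfr218), 4.76% against 0.78% of all. Both were dim, with mean levels of -2.25 and -2.72, and of the dimmest brightness band 2.14% were members. Of the 42, 35 were higher on both slides and none lower on both, with medians of 0.43 and 0.31, where 33.1% of all detected probes were higher on both.

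A few genes met the rule with more than 1 probe. Bmpr1a, a type I receptor for bone morphogenetic proteins, did so with both of its detected probes. Probe A_52_P17146 read 0.13 and 1.37 in Meis1 KO and -0.83 and 0.12 in wild type, and A_52_P624572 read -1.12 and -0.50 against -1.97 and -1.52. Acvr2a, an activin receptor seen to be a member only afterwards, read 0.30 and 0.51 against -0.65 and -0.42 with its member probe, and its other detected probe differed by -0.50 and 0.29. On the list of cytokine and growth factor receptors, which does not hold Il15ra, Il17rb or Acvr2a, Bmpr1a was the one member gene of 35 detected.

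Slc25a40, a carrier of the mitochondrial inner membrane, had the brightest probe among the genes with several members. Its probe A_51_P329490 read 2.67 and 2.80 in Meis1 KO and 1.80 and 1.73 in wild type, with little spread within a genotype. Its dimmer probe A_52_P17817 read -2.10 and -2.21 against -3.41 and -3.05. Nudt11, a diphosphoinositol polyphosphate hydrolase, read -0.78 and -0.61 against -1.92 and -1.88 with probe A_52_P8632. Its probe A_51_P490215 read -1.17 and -0.99 against -2.02 and -2.21. The 2 Nudt11 probes overlap on the genome and cannot count as independent, and Nudt10 is a near-identical copy, so that the gene behind the signal is uncertain. Afdn (Mllt4 on the array), an adaptor of adherens junctions, read -1.01 and -0.74 against -2.45 and -1.79 with probe A_51_P493486 and -1.58 and -0.14 against -2.57 and -2.90 with A_52_P305949. A further Afdn probe, A_51_P476660, differed by 0.29 and -0.31. Zfp367, a zinc finger protein, had 1 member probe, A_52_P250543, at 0.75 and 1.37 against -0.18 and 0.27. A further member, A_52_P421866, lay 10751 bases away. It carries a transcript name and no symbol on the array, was counted as a separate transcript, and is described there as a Zfp367 transcript. It read -0.74 and 0.48 against -1.59 and -0.50. The brightest Zfp367 probe, A_51_P431996, differed by -0.21 on slide 1 and 0.30 on slide 2, from 4.04 in wild type on slide 1 and to 4.19 in Meis1 KO on slide 2.

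**Figure D2:**
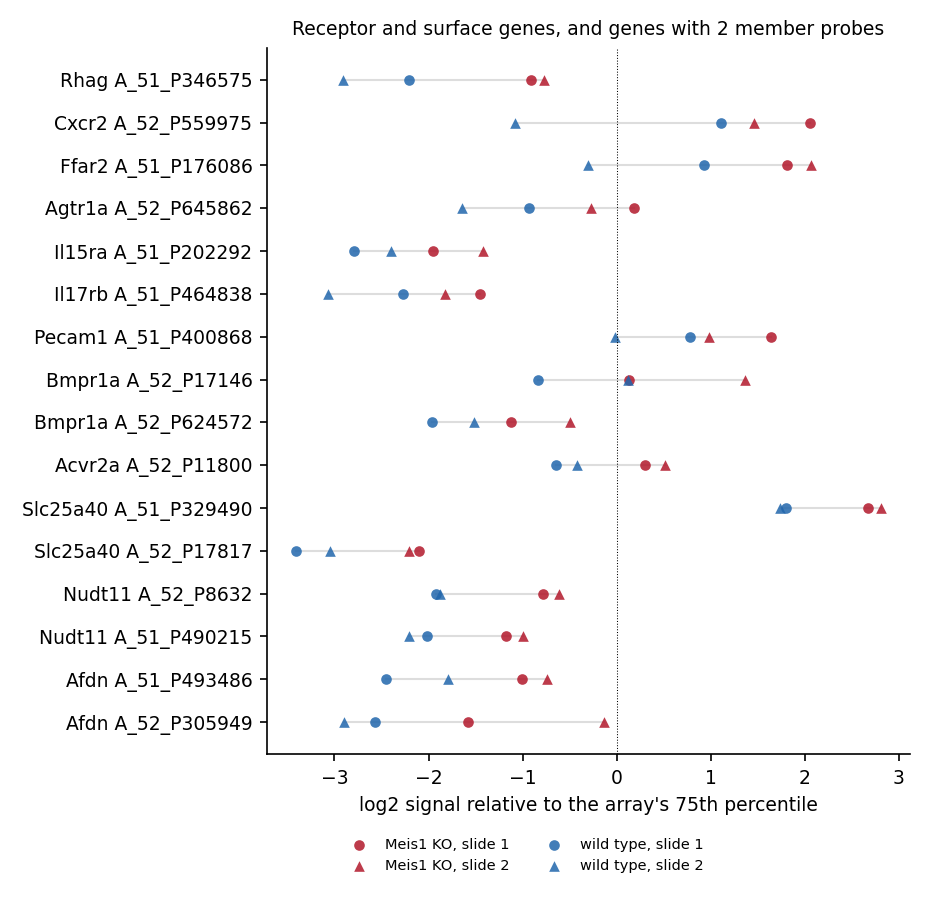
Levels of member probes of receptor and surface genes and of genes with 2 member probes (rows, with the probe name) on each array, as log2 signal relative to the 75th percentile of that array (x axis). Red is Meis1 KO, blue is wild type, circles are slide 1 and triangles slide 2. Slc25a40 probe A_51_P329490 lies to the right with both wild type arrays near 1.8, and in Bmpr1a probe A_52_P17146 a blue and a red symbol nearly coincide.

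Other leading members had varied roles. Entpd6, an ectonucleotidase, read -1.37 and -0.84 in Meis1 KO and -2.85 and -2.61 in wild type. Hpse (heparanase), which cleaves heparan sulfate, read -0.93 and -1.34 against -2.11 and -3.10. Gsto2, a glutathione transferase of the omega class, read -2.52 and -1.95 against -3.66 and -3.59. Each of the 3 had both Meis1 KO arrays above both wild type arrays. The other detected Entpd6 probe differed by -0.21 on slide 1 and 0.51 on slide 2. Prepl, a relative of prolyl endopeptidase, read -1.45 and -0.50 against -2.96 and -1.92. Ascc3, a helicase subunit, is named on the array by a RIKEN clone name, and its member probe read -1.93 and -1.40 against -3.92 and -2.89. Zfp84, a zinc finger protein, read -0.77 and 0.25 against -2.03 and -1.05. None of these 3 overlapped between genotypes with its member probe. The other detected Zfp84 probes differed by -0.38 on slide 1 and 0.01 on slide 2, and by -0.75 and -0.89. Those of Ascc3 differed by 0.26 and -0.62, and by 0.22 and -0.46. Those of Prepl differed by -0.58 and -0.10, and by 0.12 and 0.70. Khdc4, an RNA-binding protein, read -1.06 and 1.00 against -2.32 and -0.39, and Pou5f2, a POU-domain factor, read 0.03 and 1.24 against -1.47 and 0.12. In Khdc4 and Pou5f2 the second wild type array was above the first Meis1 KO array. The other detected Khdc4 probes differed by -0.31 and -0.41, and by -0.34 and 0.34. Lrrc49, a leucine-rich repeat protein, read -2.13 and -0.93 against -3.96 and -2.92, and the non-coding 9530036O11Rik read -2.65 and -2.35 against -4.17 and -3.49.

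The largest single difference was that of an immunoglobulin probe. LOC100046496, predicted to be similar to a kappa variable region, read 0.22 and 3.07 in Meis1 KO and -1.44 and -1.48 in wild type, 1.65 higher on slide 1 and 4.55 on slide 2. Its other detected probe, A_52_P685727, was 2.67 lower in Meis1 KO on slide 1, at 0.29 against 2.96, and 2.01 higher on slide 2, at 2.27 against 0.25. Variable regions resemble each other closely, so that the gene is uncertain. The 7 detected plasma cell probes had median differences of -2.74 on slide 1 and 0.79 on slide 2, and their part in this value was not tested.

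**Figure D3:**
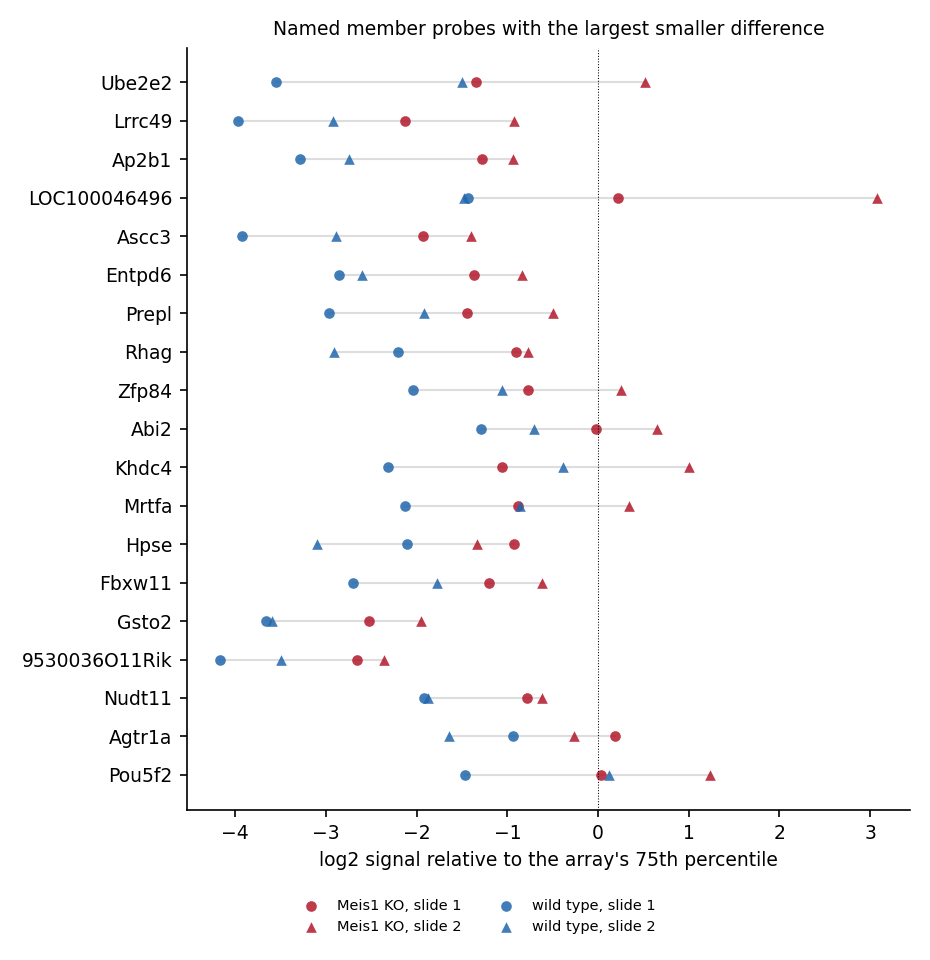
Levels on each array (x axis, log2 signal relative to the 75th percentile of that array) of the named members whose smaller difference was largest, in that order from the top. Red is Meis1 KO, blue is wild type, circles are slide 1 and triangles slide 2; within each slide the red symbol lies at least 1.12 to the right of the blue one, while most symbols lie left of 0.

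Several gene lists held a single member each. Their counts stand beside the 0.78% of all detected probes that were members, and at the size of these lists 1 member or none is near that share. Cenpk, a kinetochore protein, read -2.52 and -2.27 in Meis1 KO and -3.49 and -3.18 in wild type. It was 1 of 119 detected mitosis probes, whose median differences were 0.29 and 0.19. Fancg, of the Fanconi anemia complex that repairs DNA crosslinks, read -1.36 and -2.09 against -3.16 and -3.04. It was 1 of 88 detected repair probes, whose median differences were 0.13 and 0.10. Apaf1, the core of the apoptosome, read 0.10 and 0.76 against -0.75 and -0.28. It was 1 of 62 detected probes for p53 targets and apoptosis, with medians of -0.07 and 0.08. Of the 62, 14 were higher and 14 lower on both slides. The other detected Apaf1 probes differed by 0.67 and -0.74, and by 0.57 and -0.04. Kdm4a, a histone H3 lysine demethylase, read -1.42 and -1.17 against -2.23 and -2.28. It was 1 of 94 detected chromatin modifier probes, with medians of 0.05 and -0.50. Of the 94, 19 were higher and 28 lower on both slides. Mrpl37, of the large mitochondrial ribosomal subunit, read 0.61 and 1.11 against -0.31 and 0.27. Mrpl37 was 1 of 122 detected probes for the mitochondrial ribosome and translation, with medians of 0.03 and 0.83.

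No member came from 89 detected DNA replication probes, 49 histone probes, 107 oxidative phosphorylation probes, 129 cytosolic ribosome probes, 67 proteasome probes or 70 probes of interferon-stimulated genes. Nor did any come from 25 detected probes of LSK and stem cell markers, 26 of homeobox and partner genes or 46 of G1 cyclins and CDK inhibitors. As 0.78% of all detected probes were members, no member on lists of these sizes is near that share. Of 30 gene lists in all, 9 held a member, and 137 of the 147 members were on none. By sign, 33.1% of all detected probes were higher in Meis1 KO on both slides. Of DNA replication probes 58 of 89 were, with medians of 0.17 and 0.52, as were 63 of 119 mitosis probes and 64 of 122 probes for the mitochondrial ribosome and translation. On the interferon-stimulated list 19 of 70 were higher on both slides and 12 lower on both.

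A larger share of members than of other probes was designed on cDNA clones instead of on curated mRNAs. The RIKEN full-length clone collection sampled transcripts from many mouse tissues, including unspliced and alternative forms, so that a probe on a clone need not report the main mRNA of its gene. Of the 147 members 68, or 46.3%, rested on a RIKEN clone, against 10.0% of all detected probes and 4.11% of those lower on both slides. Probes on RefSeq transcripts made up 43.5% of members and 80.3% of all. The clone probes were dimmer, with a median level of -1.17 against 0.44 for RefSeq probes. The sources were also compared on either side of the median brightness, which does not match them fully, since below it the clone probes were still the dimmer ones. Among probes below the median brightness, 64 of 1449 clone probes (4.42%) and 54 of 7018 RefSeq probes (0.77%) were members, while 0.41% and 1.01% were lower on both slides. All 1449 dim clone probes together had a median difference of 0.27 on slide 1, where dim RefSeq probes had 0.03, and 0.22 against 0.08 on slide 2. On the arrays in turn, the median level of the dim clone probes was -1.51 and -1.35 in Meis1 KO and -1.80 and -1.53 in wild type, where dim RefSeq probes had -1.12 and -1.16, and -1.11 and -1.06. For the clone probes the first wild type array was the lowest and the first Meis1 KO and second wild type arrays were nearly equal.

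Other detected probes of the members' genes were compared next. A probe that reached 0.8 on both slides is itself a member, so the others could not pass on both by construction. There were 49 genes with 83 other probes, of which 32 (38.6%) were higher on both slides by sign, as were 33.1% of all detected probes, and 17 were lower on both. For 42 of the 49 genes the brightest other probe was brighter than the member, and over all 49 the median gap was 1.74. The brightest other probes had median differences of 0.11 on slide 1 and 0.39 on slide 2, 2 of the 49 reached 0.8 on slide 1, and 7 did on slide 2. In Ube2e2 the brighter probe read 3.34 and 3.77 in Meis1 KO and 3.46 and 3.24 in wild type, 0.13 lower on slide 1 and 0.53 higher on slide 2. In Ap2b1 it read 0.82 and 1.03 against 0.71 and 1.26. In Cenpk it read 3.98 and 4.37 against 3.86 and 3.98, and in Abi2 it read 0.82 and 1.91 against 1.08 and 1.35. In all 4 genes the 2 slides gave differences of at most 0.56 in size, and in Ube2e2, Ap2b1 and Abi2 the sign differed between slides. Abi2 had a further probe, A_52_P530042, which was lower in Meis1 KO by 0.62 on slide 1 and by 0.74 on slide 2. The brighter probe of Fbxw11 read 4.70 and 5.69 against 4.89 and 4.92, a difference of -0.19 on slide 1 and 0.78 on slide 2. That of Kdm4a read 5.72 and 5.34 against 5.74 and 5.56, a difference of -0.02 and -0.22.

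**Figure D4:**
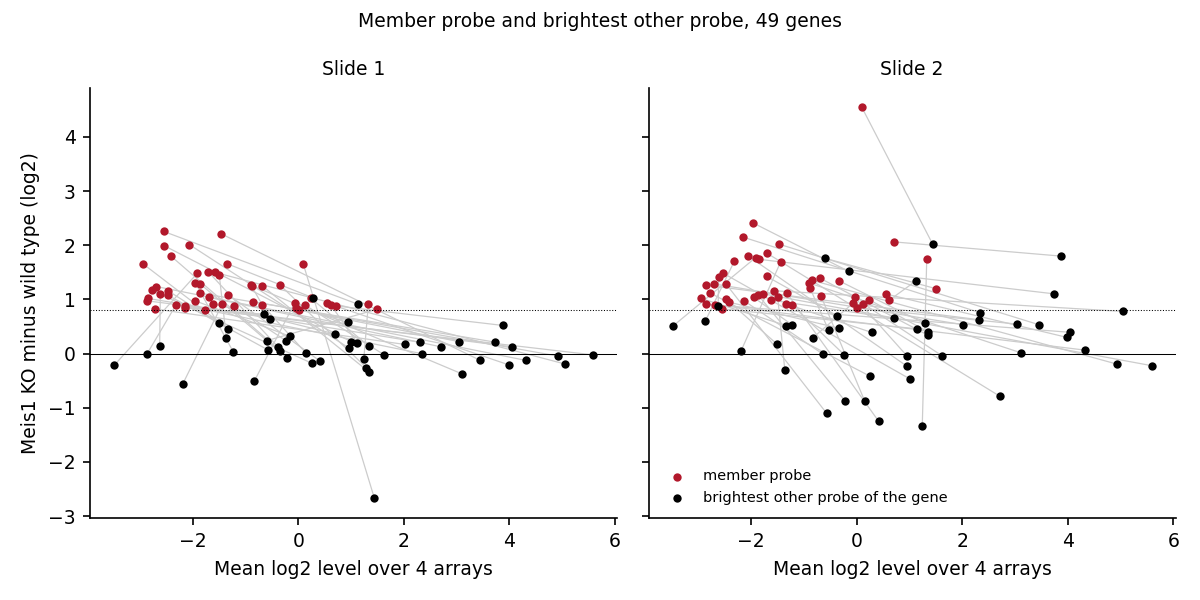
Mean level over the 4 arrays (x axis, log2) and difference between Meis1 KO and wild type (y axis, log2) on slide 1 and slide 2 for the member probe with the largest smaller difference (red) and the brightest other detected probe (black) of 49 genes, joined by a line. The red points lie above the dotted line at 0.8 by the rule, and on slide 1 all but 2 black points lie below it, most of them to the right.

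The member probes also tended to lie far upstream of the brightest probe of the same gene. For the 4 genes just given, the first 30 of the 60 bases of both probes are printed, the member above the brighter probe, because they show that the same gene symbol was measured at places far apart. Positions are those the array annotation gives on mm9 for the printed bases.
Ube2e2 member (A_52_P682007, chr14:19719080-19719109, minus strand): aggtggatgggtaatactgttcagttgaga
Ube2e2 brighter (A_51_P434697, chr14:19406160-19406189, minus strand): tgcttgtaaatttcttagggacctgccact
Ap2b1 member (A_52_P38057, chr11:83157953-83157982, plus strand): gtaactaacatgatgatgagtccatcagat
Ap2b1 brighter (A_51_P213641, chr11:83216119-83216148, plus strand): ggtctacgacagcattttgaaaaactaata
Cenpk member (A_52_P534657, chr13:105019807-105019836, plus strand): tacatctgatgttgtaaactataggtcctc
Cenpk brighter (A_51_P327322, chr13:105039451-105039480, plus strand): atagaatgtttgatgttccacatgatccat
Abi2 member (A_51_P387450, chr1:60501487-60501516, plus strand): cagttagcttttttaatctgtaaagggaat
Abi2 brighter (A_51_P363556, chr1:60537669-60537698, plus strand): agcctctttcgcaagttcagaaatctatgg

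In these 4 genes the member probe lay 312920, 58166, 19644 and 36182 bases upstream of the brighter one along the strand. Whether the members lie in an exon or an intron was not looked up, since no mm9 annotation was used here. The comparison could be made for 43 member probes whose gene had a brighter detected probe on the same chromosome and strand. Of these 36, or 83.7%, lay upstream, against 64.9% of all 5775 such probes. With downstream distances counted as negative, the median over all 43 was 13350 bases upstream, and over the 5775 it was 908. Among RIKEN clone probes, 21 of 23 members lay upstream, against 67.7% of the 654 that were not members, and the medians over all of them, counted in the same way, were 36182 and 7248 bases. Among RefSeq probes the medians were 4056 bases for 18 members and 783 for 4865 others. Fbxw11 (66244 bases), Mbnl1 (97535), Vmp1 (98566) and Ascc3 (116499) were further cases, while the Afdn probes lay downstream. Among probes below the median brightness, members made up 0.56% of the 1252 that lay downstream, 0.20% of those up to 1000 bases upstream, 0.91% of those up to 5000, 1.21% of those up to 20000 and 3.08% of those farther away. The shares that met the mirrored rule were 0.80%, 0.20%, 1.04%, 0.17% and 0.54%. The farthest group of 552 probes had a median difference of 0.19 on slide 1 and of -0.01 on slide 2. The RNA had been amplified from 10 ng before labeling. Whether the amplification or the integrity of the RNA differed between the pools was not tested.

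**Figure D5:**
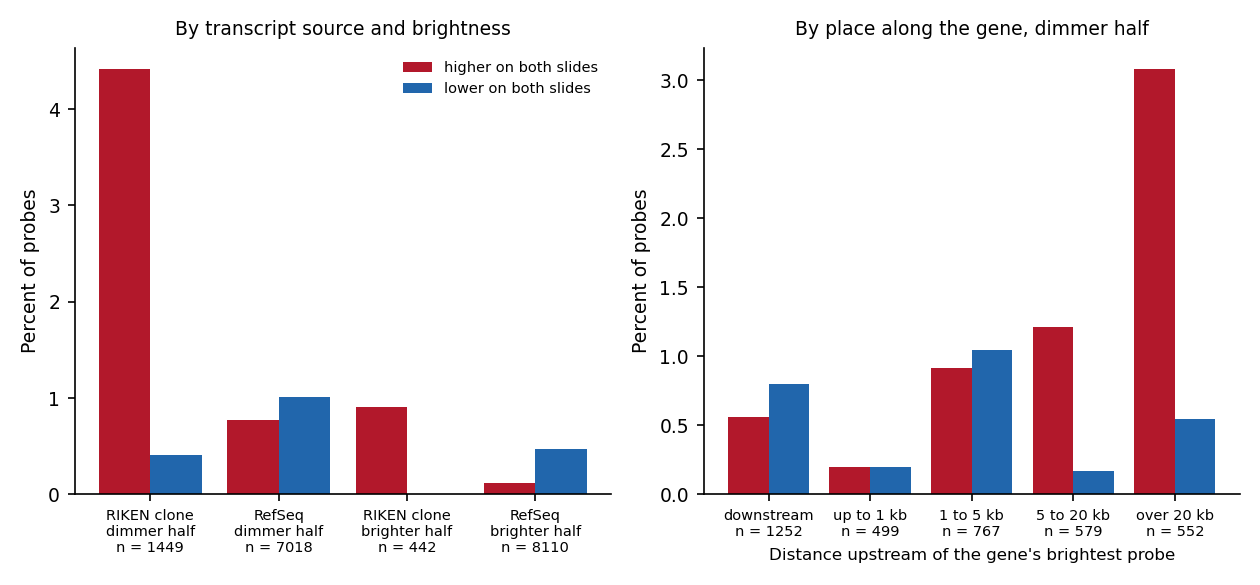
Percent of detected probes (y axes) that were higher (red) or lower (blue) by 0.8 or more on both slides. Left, by the transcript the probe was designed on and by brightness below or above the median, with clone probes below it highest at 4.42%; right, for probes below the median brightness, by distance upstream of the brightest probe of the gene, with 3.08% higher in the farthest group.

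Further features showed smaller contrasts. The GC content of the 60-base probes had a median of 38.3% in members, 41.7% in all detected probes and 42.5% in probes lower on both slides, and RIKEN clone probes as a whole had 35%. Members lay on all autosomes and on X. Chromosome 11 carried 17 of them, 11.6% against 7.91% of all detected probes, and chromosome 13 carried 11, 7.48% against 4.12%, while chromosome 2 carried 5, 3.40% against 7.93%. By their annotated positions 7 pairs of member probes lay within 50000 bases of each other. These included 4 pairs of 1 gene each (Bmpr1a, Afdn, Slc25a40 and Nudt11) and the Zfp367 probe with the transcript described as Zfp367. The others were Abi2 with a clone 7804 bases away, probe A_52_P899545, which was 0.91 higher on slide 1 and 1.71 on slide 2, and Fbxw11 with the clone 5830420C07Rik 19069 bases away, which read -1.11 and -0.77 in Meis1 KO against -2.53 and -1.71.

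RefSeq promoters (GRCm38.p6, from 250 bases before to 50 after the start) were found for 81 member genes. Motifs were searched on both strands. The Meis motif TGACAG was in 18.5% of the 81, in 16.7% of the promoters of 8564 detected genes and in 19.3% of all 27025 promoters. The CCAAT box was in 37.0%, 39.1% and 37.9%. The GATA motif AGATAA was in 11.1%, 6.41% and 11.4%, and TTTGAA, the core of the cell cycle homology region, in 19.8%, 12.2% and 18.1%. The ETS motif CCGGAAG was in 13 of the 81, in 19.8% and in 9.12%. The E-box CACGTG stood at 7.41%, 10.6% and 7.24%, E2F (TTTCCCGC or TTTGGCGC) at 3.70%, 3.26% and 1.63%, and CRE (TGACGTCA) at 4.94%, 3.40% and 1.88%. None of these strings contains another. The median GC content was 60.3% in member promoters and 60.7% in those of detected genes. The 250 bases before the start are shown for Bmpr1a and Slc25a40, which are 2 of the genes with member probes at separate places, and for Rhag, with any of these motifs in capitals.
Bmpr1a (chr14:34502547-34502796, minus strand): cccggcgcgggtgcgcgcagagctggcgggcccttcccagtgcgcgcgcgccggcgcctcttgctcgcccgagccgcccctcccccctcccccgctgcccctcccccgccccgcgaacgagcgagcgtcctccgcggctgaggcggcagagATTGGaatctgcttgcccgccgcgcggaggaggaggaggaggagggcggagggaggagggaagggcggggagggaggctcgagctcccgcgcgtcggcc
Slc25a40 (chr5:8422588-8422837, plus strand): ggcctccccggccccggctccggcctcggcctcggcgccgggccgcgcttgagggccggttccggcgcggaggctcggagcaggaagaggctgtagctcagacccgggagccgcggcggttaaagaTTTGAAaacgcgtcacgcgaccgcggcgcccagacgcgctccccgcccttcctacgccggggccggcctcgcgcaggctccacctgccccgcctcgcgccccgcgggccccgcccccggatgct
Rhag (chr17:40810899-40811148, plus strand): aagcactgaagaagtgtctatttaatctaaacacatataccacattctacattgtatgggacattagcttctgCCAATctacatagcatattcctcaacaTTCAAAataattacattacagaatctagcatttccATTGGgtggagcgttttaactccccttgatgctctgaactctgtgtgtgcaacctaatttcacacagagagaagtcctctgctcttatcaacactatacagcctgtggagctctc

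Bmpr1a and Slc25a40 have GC-rich windows with 1 motif each in the printed bases, a CCAAT box on the reverse strand and TTTGAA. The Rhag window is AT-rich and holds 3, a CCAAT box on either strand and TTTGAA on the reverse strand. These matches describe letters only.

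At the edge of the rule, the last members inside were LOC100047469, 0.80 higher on slide 1 and 1.48 on slide 2, Mbnl1 (0.80 and 0.85), a regulator of splicing, and a clone with 1.38 and 0.81 (A_52_P811736). The first probes outside were A_52_P207654 (0.797 and 0.811), A_52_P827934 (0.797 and 0.842) and A_52_P803823 (0.797 and 1.66). In all, 54 members had a smaller difference under 0.9, and 88 further probes lay between 0.7 and 0.8, so that the border runs through a dense range of values.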

How the data were processed

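RNA of LSK cells was profiled on 4 one-color arrays, 2 Meis1 KO and 2 wild type. Per array, the authors deposited the intensity of each spot as processed by Feature Extraction (9.5.3.1 in the file headers, 9.1 in the submitters' notes), background-subtracted and not scaled between arrays. The authors' table of the series holds the same intensity values rounded. Controls and spots with outlier marks were dropped, spots of a probe averaged on the log2 scale, and each array's 75th percentile over probes was subtracted. Genotypes were compared with limma 3.58.1 in R 4.3.3 over the 22000 probes detected on the 2 arrays of 1 genotype or more, with Benjamini-Hochberg adjustment. The fit was tested on simulated data. Same-numbered arrays shared a slide by the file headers, and their deviations from the genotype means correlated at 0.266. With 2 arrays per genotype both pairs give this 1 value by construction. Blocked values are given where they move a count. Of 41174 probes, 26795 were named through RefSeq accessions, 5122 through symbols and 929 through synonyms in a GRCm38.p6 table; the rest keep the array's name.

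The members, gene lists and tests were chosen with earlier results of these data known. Named are the 20 members with a gene symbol and the largest smaller difference of both slides, genes with 2 or more member probes, members on a gene list (at most 6 per list), the 3 probes on either side of the threshold, and Meis1, except that some items are not reported here. Mice in a pool are not separate samples, and precision is limited by the small number of arrays and by dim signals. Alternatives were other scalings, background corrections, filters and thresholds, crossed pairs and each array left out.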

Additional observations from a re-analysis of the deposited data

How the results depend on the processing

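The count of 147 probes stayed within 1.5 times under median (175) and quantile scaling (156), the series value table (150) and outlier spots kept (146). So did the percentile over spots (148), added after seeing the data. Of the 175 and 156 probes, 123 and 130 were members. Crossed pairs gave 136 probes and 166 lower ones, but 43 of the 136 were members. A like count there is thus not a like set. The count was 4 (72 lower) with normexp and an offset of 50, which flattens dim signals by its construction. With an offset of 1 (added after seeing the data) it was 279 (93 lower). It was 313 with detection on both arrays of 1 genotype, 791 with no filter on dim probes, and 59 at a threshold of 1. On 1 slide alone it ran from 642 (without replicate 2) to 4009 (without replicate 1). The members' median difference of 1.19 was 0.641 with normexp and ran from 0.863 without Meis1 KO replicate 2 to 1.52 without Meis1 KO replicate 1. It stayed between 1.07 and 1.28 under the other scalings.

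In limma 30 probes met the criteria upward and 132 downward, none with an adjusted p under 0.05 (618 at an unadjusted p under 0.05). With the replicate block (slide) 126 and 297 did. In that blocked fit 34 of all probes had an adjusted p under 0.05, none of them a member. By the methods' t-test 7 and 23 met the criteria. With no filter 101 did upward, with a filter on all 4 arrays 9 and 44, and with normexp 2 and 45. Leaving out 1 array gave 34 to 516 upward and 60 to 1735 downward, from 516 and 1735 without Meis1 KO replicate 1 to 34 and 263 without its replicate 2, and 51 and 60 without wild type replicate 1 or 49 and 74 without its replicate 2. The lone array is then assumed to vary like the other genotype. The cause was not tested. Of 165 differences of the named members recomputed with all arrays, none changed sign. The members were chosen as 0.8 or more higher on both slides of these same arrays, so the unchanged sign is no check. Of the 165, 25 moved by more than 1 SD between replicates, 23 of them with normexp. With 1 of 2 arrays left out the move cannot exceed that SD by construction, so it is no check. The mean difference of 10 of the 33 named probes then fell under 0.8 at least once. Khdc4 went from 1.32 to 0.29 without Meis1 KO replicate 2, Ube2e2 from 2.11 to 1.09 and Mrtfa from 1.22 to 0.59 without wild type replicate 1. The signal over background limits the members, which were mostly dim.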
